A study of Mus musculus with 12 samples.

Results

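The genes described here are the transcriptional coactivators of the Hippo pathway, *Yap1* and *Wwtr1* (which encodes TAZ), their DNA-binding partner *Tead1*, and 5 of their known target genes, *Amotl2*, *Lats2*, *Ankrd1*, *Ctgf* and *Cyr61*. They were chosen by symbol, and all 8 of 8 were found among the 39179 genes of the count table. Their RNA was measured in pancreatic stellate cells (PSCs), the fibroblast-like cells of the pancreas, which were of C57BL/6 strain, came from 1 SV40-immortalised mouse clone and carried mCherry. PSCs were kept for 72 h in minimal medium with little serum, alone (mono-PSCs), with pancreatic cancer cells (PCCs) expressing EGFP (2W-PSCs), or with the same PCCs and with macrophages (MØs) expressing TagBFP (3W-PSCs). The PCCs were a mouse iKras line, maintained in doxycycline, and RAW264.7 cells served as MØs. Every flask was set up with an equal total number of cells, and the PSCs were isolated by sorting on mCherry and on absence of the other labels. Each culture gave 4 libraries, which the series names biological replicates.

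In the Hippo pathway, upstream kinases and their scaffolds activate the kinases LATS1 and LATS2. These phosphorylate YAP and TAZ, which are then held in the cytoplasm or degraded. Unphosphorylated YAP and TAZ enter the nucleus, bind TEAD proteins and raise transcription of genes for matrix-associated and cytoskeletal proteins. In fibroblasts and stellate cells they respond to stiffness, spreading, cell density and serum, and they are known for a role in matrix-producing, activated states. *Lats2* and *Amotl2* are targets that act back on YAP and TAZ as inhibitors. The amount of messenger RNA measured here does not report the phosphorylation or location of the proteins.

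TEAD proteins bind DNA at the letters GGAATG or, read on the other strand, CATTCC. Windows of 300 bases, from 250 before to 50 after the start of transcription, were taken from RefSeq on GRCm38.p6, and 6 of the 8 genes had an entry (*Ctgf* and *Tead1* did not), *Wwtr1* and *Lats2* with 2 windows each. These letters were found in at least 1 window of all 6 genes, against 16.6% of 27025 genes, and in 7 of their 8 windows, against 14.7% of 32851 windows, the exception being the other window of *Lats2*. The 2 windows of *Wwtr1* overlap and hold the same site, which is counted in both. The sites are shown because they are where both coactivator genes and the targets *Amotl2*, *Lats2*, *Ankrd1* and *Cyr61* carry the letters that TEAD proteins recognise. Each is printed as 30 bases, 5′ to 3′ on the strand of the gene, with the TEAD letters in capitals.
Yap1, chr9:8004720-8004749, minus strand: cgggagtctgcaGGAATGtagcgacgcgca
Wwtr1, chr3:57576029-57576058, minus strand: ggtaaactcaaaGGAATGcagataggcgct
Amotl2, chr9:102717727-102717756, plus strand: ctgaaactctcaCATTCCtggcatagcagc
Lats2, chr14:57746102-57746131, minus strand: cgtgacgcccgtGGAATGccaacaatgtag
Ankrd1, distal, chr19:36120037-36120066, minus strand: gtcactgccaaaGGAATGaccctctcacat
Ankrd1, proximal, chr19:36119950-36119979, minus strand: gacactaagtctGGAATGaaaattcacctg
Cyr61, chr3:145650071-145650100, minus strand: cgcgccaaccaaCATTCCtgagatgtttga
The capitals began 210 and 123 bases before the RefSeq start in *Ankrd1*, 141 before it in *Yap1*, 136 in *Wwtr1*, 103 in *Cyr61* and 65 in *Amotl2*, and 4 bases after it in *Lats2*. In the gene annotation of GRCm38 the sites of *Yap1*, *Wwtr1* and *Cyr61* lay outside genes, while those of *Amotl2*, *Lats2* and *Ankrd1* lay in untranslated exon sequence of some annotated transcript of the same gene. A second set of letters, TGANTCA, which AP-1 factors bind, was in 0 of the 8 windows and in 7.81% of all windows. A match is a description of sequence and not of binding.

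Libraries held 4561817 to 8093368 counts, and 10363 to 11741 genes had at least 10 counts in a library. Replicate 2 of 2W-PSCs stood apart, with a Spearman correlation of 0.858 to 0.920 to the other 2W-PSCs across genes, against 0.948 to 0.987 for the other pairs within a culture. Of 10 fibroblast markers, 9 had at least 10 counts in every library, whereas the stellate marker *Des* had only 2 to 25 counts. Summed over the list, these markers ran from 9013 to 12618 CPM (counts scaled to a common library size) in mono-PSCs, 12465 to 19596 in 2W-PSCs, and 7126 to 8753 among the 3W-PSCs. The macrophage marker *Adgre1* was at 0 in all libraries, and 10 macrophage markers summed to 2.26 to 8.14 CPM in mono-PSCs, 3.20 to 10.8 in 2W-PSCs, and 8.37 to 44.4 among the 3W-PSCs. Epithelial markers summed to 0.481 to 2.44 CPM in mono-PSCs, 73.6 to 145 in 2W-PSCs, and 49.7 to 88.6 among the 3W-PSCs. Of these 10 markers, *Cldn4* was at 0 in all libraries, and *Epcam*, *Cldn7*, *Esrp1* and *Ocln* had at most 4 counts in any library. The other 5, *Cdh1*, *Krt7*, *Krt8*, *Krt18* and *Krt19*, had at least 10 counts in every 2W-PSC and 3W-PSC library. The epithelial sum thus moved with co-culture, and the macrophage sum was higher in every 3W-PSC library than in every mono-PSC library. The part of either sum in the differences below was not tested.

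Of the 8 genes, 1 differed between cultures past the threshold, *Ctgf*, which rose in 3W-PSCs against mono-PSCs. A gene was called at an adjusted p under 0.05 in edgeR's quasi-likelihood test on counts, with Benjamini-Hochberg adjustment over all genes tested. In 2W-PSCs against mono-PSCs, the comparison that asks what PCCs change, 0 of the 8 were called, where 0.991% of all 11199 genes tested were (0.839% higher and 0.152% lower). The lowest adjusted p of the 8 was 0.828 (edgeR). DESeq2 called 0 of the 8 as well, and 1.94% of all genes. In 3W-PSCs against mono-PSCs, which asks about PCCs and MØs together, 1 of 8 was called (12.5%), higher, where 26.4% of 11551 genes were called and 13.4% were called higher. In 3W-PSCs against 2W-PSCs, which asks what MØs add, 0 of 8 were called against 10.7% of 11513 genes (5.73% higher and 4.95% lower). *Cyr61* had the lowest adjusted p of the 8 there (0.0734, edgeR), and DESeq2 called 1 of the 8 and 13.5% of all genes. The median log2 fold change of the 8 genes was -0.11, 0.27 and 0.39 in these comparisons, against 0.020, 0.012 and 0.0025 over all genes tested. The last 2 comparisons share the 3W-PSC libraries, and the first and the second share the mono-PSC libraries. Because every flask was set up with the same total, flasks with added cells started with fewer PSCs than mono-PSC flasks. The number of each cell type per flask is not given, so added cells and altered cell numbers cannot be told apart.

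**Figure D1:**
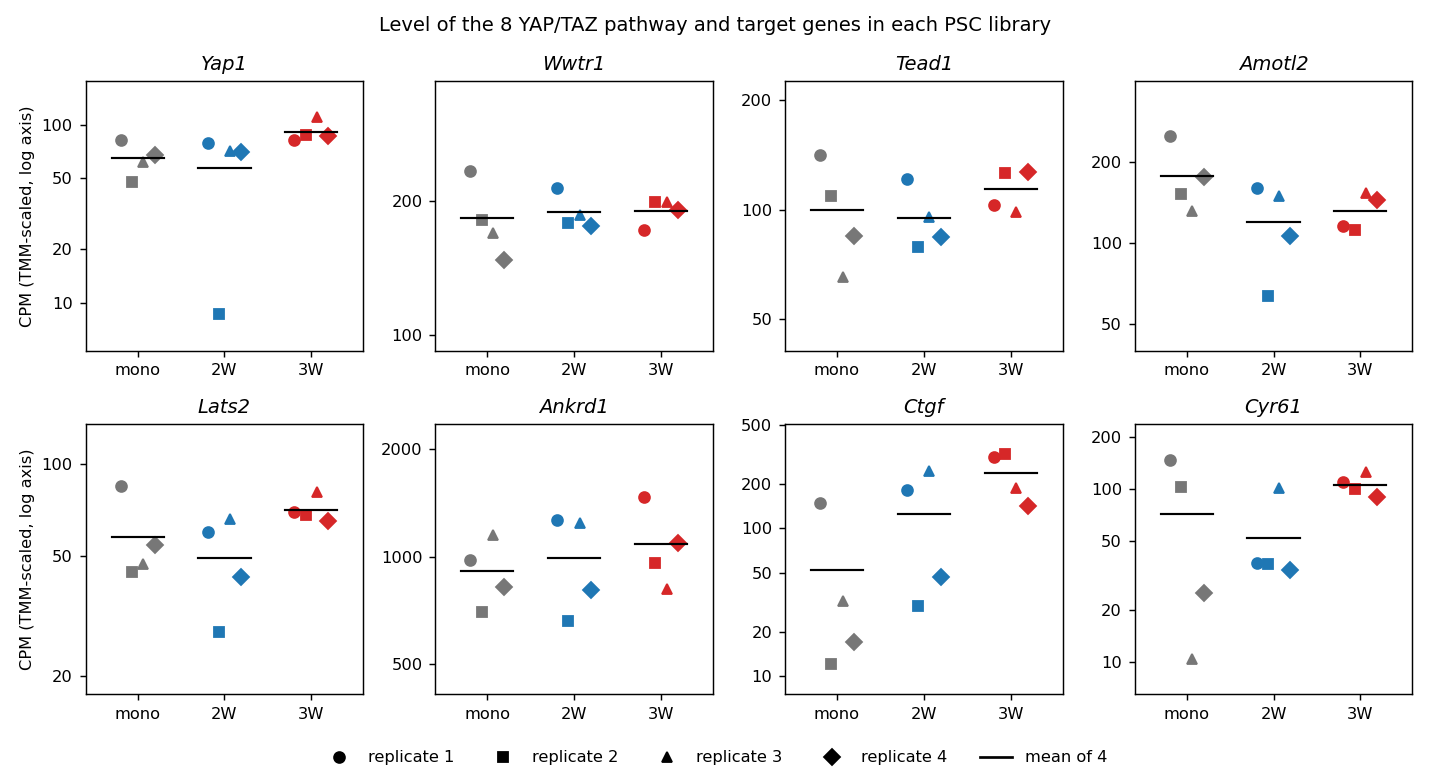
Level of each of the 8 genes in CPM after TMM scaling (log axis, a scale of its own for each gene) in the 4 libraries each of mono-PSCs, 2W-PSCs and 3W-PSCs; the shape gives the replicate and the line is the mean of 4. *Ctgf* spreads from 12.1 to 149 CPM in mono-PSCs and from 141 to 317 CPM in 3W-PSCs, and replicate 2 of 2W-PSCs stands at 8.61 CPM for *Yap1*.

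*Yap1* (ENSMUSG00000053110) encodes YAP (GRCm38 chromosome 9, 7931999 to 8004596, minus strand). Replicates 1 to 4 had 82.5, 47.8, 61.5 and 67.3 CPM in mono-PSCs, 78.7, 8.61, 70.9 and 70.2 CPM in 2W-PSCs, and 82.4, 87.2, 110.1 and 86.1 CPM in 3W-PSCs. All 3W-PSC libraries lay above all 2W-PSC libraries, which held for 1 of the 8 genes and, in either direction, for 21.3% of all genes tested. Against mono-PSCs 0 of the 8 genes were without overlap in either co-culture, where 5.75% of genes were in 2W-PSCs and 26% in 3W-PSCs. For *Yap1* the lowest 3W-PSC library fell just short of the highest mono-PSC library. The means were 64.8 ± 14.4 CPM in mono-PSCs, 57.1 ± 32.6 in 2W-PSCs and 91.5 ± 12.6 in 3W-PSCs (SD, n = 4 each). In 3W-PSCs against mono-PSCs the log2 fold change was 0.49 (standard error 0.178, 95% interval 0.11 to 0.86), with an adjusted p of 0.0505 in edgeR, just above the threshold. In 7 of 16 alternative settings the adjusted p was under 0.05, with a range of 0.00671 to 0.439. Against 2W-PSCs the log2 fold change was 0.67, with a 95% interval of -0.35 to 1.68 (standard error 0.463, adjusted p = 0.395, edgeR). Without 2W-PSC replicate 2 it was 0.31 (standard error 0.146, adjusted p = 0.154, edgeR). *Yap1* shares 116 exonic bases with *Gm20416* on the opposite strand, under whose name no counts were found.

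*Wwtr1* (ENSMUSG00000027803, chromosome 3, 57455649 to 57575910, minus strand) encodes TAZ, the other coactivator. It had 234, 182, 169.6 and 147 CPM in replicates 1 to 4 of mono-PSCs, 214, 179, 186 and 176 CPM in 2W-PSCs, and 172, 199.7, 199 and 191 CPM in 3W-PSCs. The cultures overlapped throughout, and the means of 183 ± 36.7, 189 ± 17.6 and 191 ± 12.7 CPM (SD, n = 4 each) were closer together than the libraries within a culture. Log2 fold changes were 0.067, 0.053 and 0.010 in 2W-PSCs against mono-PSCs, 3W-PSCs against mono-PSCs and 3W-PSCs against 2W-PSCs. Their 95% intervals, -0.36 to 0.49, -0.28 to 0.39 and -0.31 to 0.33, bound a change in either direction to about those sizes, and adjusted p-values were 0.999, 0.836 and 0.974 (edgeR). Unlike *Yap1*, *Wwtr1* was not low in replicate 2 of 2W-PSCs. Its range within 2W-PSCs, 1.22-fold on CPM + 1, was smaller than that of 8428 of 8924 genes with a mean log2 CPM above 3.

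*Tead1* (ENSMUSG00000055320, chromosome 7, 112679318 to 112906807, plus strand) encodes a TEAD protein, through which YAP and TAZ reach DNA. Replicates 1 to 4 had 141, 109, 65.4 and 84.7 CPM in mono-PSCs, 122, 78.9, 95.6 and 83.8 CPM in 2W-PSCs, and 103, 127, 98.5 and 127 CPM in 3W-PSCs. Mono-PSCs held both the highest and the lowest of the 12 libraries. The means were 100.04 ± 32.7, 95.03 ± 19.2 and 114 ± 15.3 CPM (SD, n = 4 each), and the log2 fold changes of -0.053, 0.18 and 0.26 in the same order of comparisons had adjusted p-values of 0.999, 0.545 and 0.404 (edgeR). The widest of their 95% intervals was -0.60 to 0.49, for 2W-PSCs against mono-PSCs.

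The target genes that encode inhibitors gave values on both sides of 0. *Amotl2* (ENSMUSG00000032531, chromosome 9, 102716672 to 102733418, plus strand), an angiomotin family member that binds and retains YAP, had 251, 153, 131 and 175 CPM in replicates 1 to 4 of mono-PSCs. It had 160.3, 63.4, 150.1 and 106 CPM in 2W-PSCs and 115, 112, 153 and 144 CPM in 3W-PSCs. Mono-PSC replicate 1 was the highest of the 12 and 2W-PSC replicate 2 the lowest, with overlap between all cultures. The means of 177 ± 52.0, 119.9 ± 44.4 and 131 ± 20.6 CPM (SD, n = 4 each) gave log2 fold changes against mono-PSCs of -0.54 in 2W-PSCs (standard error 0.296, adjusted p = 0.828) and -0.44 in 3W-PSCs (standard error 0.194, adjusted p = 0.100), neither called by edgeR. The value of 2W-PSCs was -0.34 without mono-PSC replicate 1 or without 2W-PSC replicate 2. Without mono-PSC replicate 3, the adjusted p for 3W-PSCs was 0.0462. Between 3W-PSCs and 2W-PSCs the log2 fold change was 0.12, and it was -0.087 without 2W-PSC replicate 2.

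*Lats2* (ENSMUSG00000021959, chromosome 14, 57689662 to 57758388, minus strand) encodes the kinase that phosphorylates YAP and TAZ. Replicates 1 to 4 had 84.6, 44.3, 46.9 and 54.0 CPM in mono-PSCs, 59.8, 28.04, 66.1 and 42.5 CPM in 2W-PSCs, and 69.5, 67.9, 81.0 and 65.2 CPM in 3W-PSCs. The 3W-PSC libraries lay closest together, and 3 of the 4 mono-PSC libraries were below all of them. With means of 57.4 ± 18.6, 49.1 ± 17.2 and 70.9 ± 6.97 CPM (SD, n = 4 each), the log2 fold change of 3W-PSCs was 0.30 against mono-PSCs (standard error 0.197, adjusted p = 0.287) and 0.52 against 2W-PSCs (standard error 0.243, adjusted p = 0.199), not past the threshold in edgeR. Without mono-PSC replicate 1 the log2 fold change against mono-PSCs was 0.54 (adjusted p = 0.0119, edgeR), and it was 0.19 without mono-PSC replicate 2. Against 2W-PSCs it was 0.33 without 2W-PSC replicate 2. *Lats2* shares 2955 exonic bases and 35.7% of the 75-base windows of its 3′ ends with *Gm49361*, a read-through gene on the same strand in GENCODE M21, so its counts may be less certain. No counts were found under the name *Gm49361*, and whether the overlap affected the counts of *Lats2* was not tested. The 3′ ends of the other 7 genes shared no such window with another gene.

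Among the targets with no known inhibitor role, *Ankrd1* (ENSMUSG00000024803, chromosome 19, 36111961 to 36120099, minus strand), which encodes an ankyrin repeat protein of muscle and nucleus, was the most abundant of the 8 genes. It had 981, 703, 1149 and 821 CPM in replicates 1 to 4 of mono-PSCs, 1264, 661, 1241 and 806 CPM in 2W-PSCs, and 1470.1, 962, 812 and 1093 CPM in 3W-PSCs. High and low libraries occurred in each culture. The means of 914 ± 194, 993 ± 306 and 1084 ± 282 CPM (SD, n = 4 each) differed by less than the spread within a culture, and the log2 fold changes of 0.14, 0.24 and 0.12 (2W-PSCs and then 3W-PSCs against mono-PSCs, and 3W-PSCs against 2W-PSCs) had adjusted p-values of 0.999, 0.393 and 0.799 (edgeR). Their 95% intervals reached no further than -0.43 and 0.70.

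*Ctgf* (ENSMUSG00000019997, chromosome 10, 24595442 to 24598683, plus strand) encodes connective tissue growth factor, a secreted matricellular protein. Replicates 1 to 4 had 149, 12.1, 32.1 and 17.0 CPM in mono-PSCs, 181, 29.8, 244 and 46.5 CPM in 2W-PSCs, and 304, 317, 187 and 141 CPM in 3W-PSCs. In mono-PSCs 3 libraries were low and replicate 1 reached the level of the lowest 3W-PSC library, so that these cultures overlapped by 1 library. In 2W-PSCs replicates 1 and 3 stood in the range of 3W-PSCs and replicates 2 and 4 in or near that of the low mono-PSCs. The means were 52.6 ± 64.9 CPM in mono-PSCs, 125 ± 104 in 2W-PSCs and 237 ± 86.7 in 3W-PSCs (SD, n = 4 each).

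Against mono-PSCs, *Ctgf* rose in 3W-PSCs, with an edgeR log2 fold change of 2.16 (95% interval 1.01 to 3.32, standard error 0.548, adjusted p = 0.00719). All 16 of 16 alternative settings called it, giving log2 fold changes of 1.84 to 3.53 and adjusted p-values up to 0.0478 in DESeq2. Without mono-PSC replicate 1 the log2 fold change was 3.53 (adjusted p = 1.78e-07, edgeR). For 2W-PSCs against mono-PSCs it was 1.27 (standard error 0.780, 95% interval -0.42 to 2.96, adjusted p = 0.887) and for 3W-PSCs against 2W-PSCs 0.92 (standard error 0.559, 95% interval -0.31 to 2.14, adjusted p = 0.328), neither called by edgeR. The former was 2.63 without mono-PSC replicate 1 and 0.72 without 2W-PSC replicate 3, and the latter was 1.46 without 2W-PSC replicate 3 and 0.59 without 2W-PSC replicate 2, with none of these 4 fits calling *Ctgf*. In bulk RNA of sorted cells, more *Ctgf* per cell and more cells that express it cannot be told apart. *Ctgf* shares 665 exonic bases with *Gm15270* on the opposite strand, which had 0 to 20 counts in a library.

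*Cyr61* (ENSMUSG00000028195, chromosome 3, 145646976 to 145649981, minus strand) encodes a secreted protein of the same family as *Ctgf*. It had 148, 103, 10.5 and 24.9 CPM in replicates 1 to 4 of mono-PSCs, 37.3, 36.9, 101 and 34.2 CPM in 2W-PSCs, and 109.8, 99.4, 126 and 89.8 CPM in 3W-PSCs. Mono-PSCs split into a pair of high and a pair of low libraries, 3 of the 4 2W-PSC libraries lay below every 3W-PSC library, and replicate 3 of 2W-PSCs stood among them. With means of 71.5 ± 65.2, 52.4 ± 32.4 and 106 ± 15.4 CPM (SD, n = 4 each), *Cyr61* in 3W-PSCs stood 1.02 above its level in 2W-PSCs on the fitted log2 scale (95% interval 0.29 to 1.74, standard error 0.329), with an unadjusted p of 0.00999 and an adjusted p of 0.0734 in edgeR. Without 2W-PSC replicate 3 it was 1.55 (adjusted p = 0.000804), and without 2W-PSC replicate 2 the adjusted p was 0.0487. Over the 16 alternative settings the adjusted p ranged from 0.000804 to 0.269, and 5 of 16 were under 0.05. Against mono-PSCs the log2 fold change was -0.42 in 2W-PSCs (standard error 0.643, adjusted p = 0.999) and 0.57 in 3W-PSCs (standard error 0.487, adjusted p = 0.419), and without mono-PSC replicate 1 it was 0.21 and 1.22, the latter with an adjusted p of 0.0376 (edgeR). In 3W-PSCs against mono-PSCs it was 0.21 without mono-PSC replicate 3 and 0.28 without mono-PSC replicate 4, and in 2W-PSCs against mono-PSCs it ran down to -0.97 without 2W-PSC replicate 3.

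**Figure D2:**
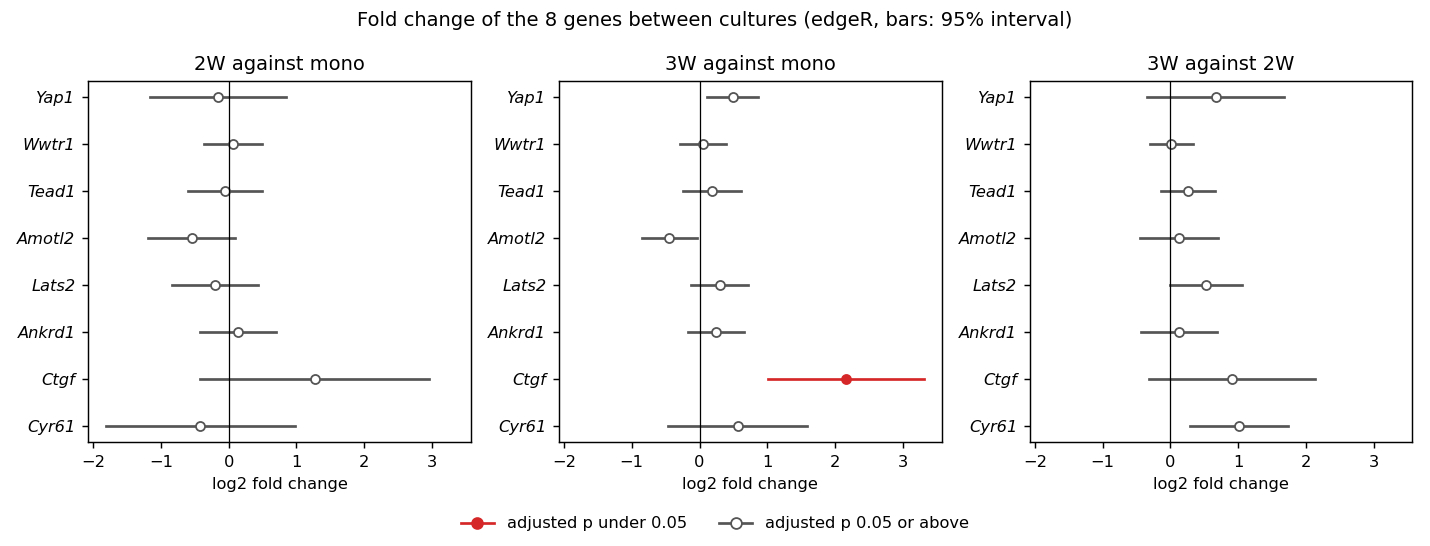
Log2 fold change of the 8 genes in each comparison from edgeR, with bars for the 95% interval and filled points for an adjusted p under 0.05. *Ctgf* in 3W-PSCs against mono-PSCs is the filled point, at 2.16, while the intervals of *Ctgf* and *Cyr61* are the widest in 2W-PSCs against mono-PSCs and that of *Wwtr1* is the narrowest in each panel.

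The spread within mono-PSCs separated *Ctgf* and *Cyr61* from the other 6 genes. The ratio of the highest to the lowest library, on CPM + 1, was 13.0 for *Cyr61* and 11.4 for *Ctgf* in mono-PSCs, where the median of 8924 genes with a mean log2 CPM above 3 was 1.58. In mono-PSCs 0 of these genes had a larger ratio than *Cyr61* and 2 had a larger ratio than *Ctgf*. In 3W-PSCs the ratio was 2.24 for *Ctgf* and 1.40 for *Cyr61*, where the median gene had 1.35. In 2W-PSCs *Yap1* had 8.30 and *Ctgf* 7.97, with a median of 1.77, and the *Yap1* ratio rests on replicate 2.

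High levels in mono-PSCs came mostly from 1 library. Replicate 1 was the highest of the mono-PSCs for 7 of the 8 genes, all but *Ankrd1*. Replicate 2 was the lowest of the 2W-PSCs for 6 of the 8, all but *Wwtr1* and *Cyr61*, which were lowest in replicate 4. Without mono-PSC replicate 1, edgeR called 4 of the 8 genes (*Ctgf*, *Yap1*, *Lats2* and *Cyr61*) in 3W-PSCs against mono-PSCs in place of 1, all higher, and calls over all genes tested went from 26.4% to 36.3%. Without 2W-PSC replicate 2 or replicate 3, 1 of the 8, *Cyr61*, was called between 3W-PSCs and 2W-PSCs in place of 0, where calls over all genes went from 10.7% to 18% and 11.2%.

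Among the genes whose levels ran most like those of *Ctgf* over the 12 libraries were *Slc19a2* and *Plac8*. Likeness was the root mean square difference of log2(CPM + 1), each gene centred on its own mean, among 8924 genes. It was 0.670 for *Slc19a2* and 0.674 for *Plac8*, against 1.62 for the median gene and 1.58 for a flat line at the mean of *Ctgf*. *Slc19a2*, a thiamine transporter gene, had means of 6.11, 8.37 and 29.2 CPM in mono-PSCs, 2W-PSCs and 3W-PSCs, and *Plac8* had means of 5.24, 18.6 and 46.1 CPM in the same order. All 3 genes were above their own mean in every 3W-PSC library and below it in mono-PSC replicates 2, 3 and 4 and in 2W-PSC replicate 2. *Slc19a2* and *Plac8* were picked for likeness over these same libraries, so the shared pattern follows from the choice.

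**Figure D3:**
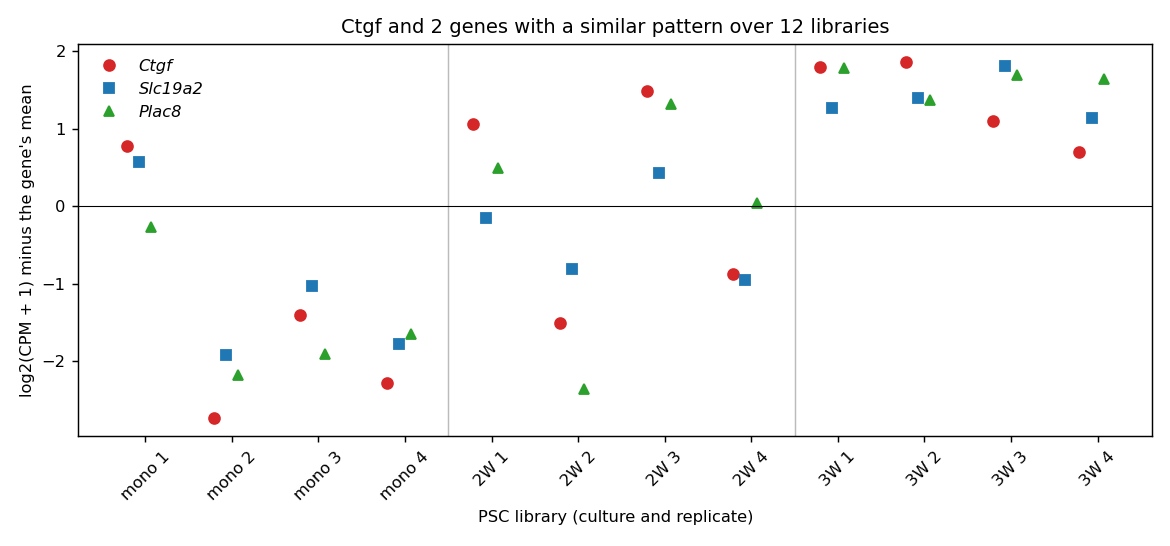
log2(CPM + 1) of *Ctgf*, *Slc19a2* and *Plac8* in each of the 12 libraries, each gene minus its own mean over the libraries. All 3 genes lie above 0 in the 4 3W-PSC libraries, below 0 in mono-PSC replicates 2 to 4 and spread to both sides in 2W-PSCs. *Slc19a2* and *Plac8* were picked for their likeness to *Ctgf* over these libraries.

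Of 27 other genes of the Hippo pathway, 26 had enough counts to be tested and *Dchs1*, with at most 11 counts in a library, did not. In 3W-PSCs against mono-PSCs 8 of the 26 were called by edgeR, 5 higher and 3 lower, which is 30.8% against the 26.4% of all genes. The 5 that rose were *Lats1* itself and genes for kinases and cofactors that activate LATS. *Map4k4*, a kinase that acts upstream of LATS, rose by 1.33 on the log2 scale (standard error 0.178, adjusted p = 3.13e-05, edgeR). Its level was 283 ± 34.9 CPM in mono-PSCs, 318 ± 24.2 in 2W-PSCs and 713 ± 164 in 3W-PSCs (SD, n = 4 each). Every 3W-PSC library of *Map4k4* was above every library of both other cultures. Between 3W-PSCs and 2W-PSCs 7 of the 26 genes were without overlap in either direction, against 21.3% of all genes tested. *Mob1b*, a cofactor of LATS, rose from 15.1 ± 4.03 to 32.3 ± 2.87 CPM (log2 fold change 1.09, adjusted p = 0.00106, edgeR), again with no overlap. *Lats1* rose by 0.70, *Sav1*, the scaffold of the upstream kinases, by 0.77 and *Taok1*, a kinase that activates them, by 0.60 on the log2 scale (adjusted p = 0.0142, 0.0457 and 0.0370, edgeR). *Sav1* and *Taok1* share 1336 and 94 exonic bases with *Atl1* and *Abhd15* on the opposite strand.

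The 3 that fell were *Wwc1*, *Ajuba* and *Amot*, and for each of them every 3W-PSC library was below every mono-PSC library. Over the list 6 of the 26 genes were without overlap there in either direction, against 26% of all genes tested. *Wwc1*, which encodes the LATS-activating scaffold KIBRA, went from 50.7 ± 15.8 to 22.1 ± 0.834 CPM (SD, n = 4 each; log2 fold change -1.20, adjusted p = 0.000484, edgeR). *Ajuba*, a LIM protein that inhibits LATS, went from 78.5 ± 19.2 to 37.2 ± 6.87 CPM (log2 fold change -1.08, adjusted p = 0.000613, edgeR). *Amot*, which retains YAP in the cytoplasm, fell by 0.65 on the log2 scale (adjusted p = 0.0279, edgeR). The called genes thus included activators of LATS in both directions. Over 16 alternative settings the calls of *Map4k4*, *Mob1b*, *Lats1*, *Wwc1* and *Ajuba* were made in 16, those of *Amot* in 12, *Taok1* in 10 and *Sav1* in 8, and the count was 5 in place of 8 without 3W-PSC replicate 2 and without mono-PSC replicate 4, where 19% and 21.8% of all genes were called.

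Between 3W-PSCs and 2W-PSCs, 3 of the 26 were called by edgeR, all higher, which is 11.5% against 10.7% of all genes. They were *Map4k4*, *Mob1b* and *Taok1*, with log2 fold changes of 1.16, 0.76 and 0.71 (adjusted p = 0.00358, 0.0352 and 0.0313). The count was 1 when 3W-PSC replicate 1, 2 or 4 or 2W-PSC replicate 4 was left out, fits that called 4.25% to 5.71% of all genes, with *Map4k4* called in 16 of 16 settings, *Taok1* in 10 and *Mob1b* in 8. Between 2W-PSCs and mono-PSCs 0 of the 26 were called in edgeR and in DESeq2, which called 0.991% and 1.94% of all genes. The lowest adjusted p of the 26 was 0.232 (edgeR). Without 2W-PSC replicate 2, edgeR called *Ajuba* (adjusted p = 0.0204) and 2.03% of all genes. The median log2 fold change of the 26 genes was -0.014 in 2W-PSCs against mono-PSCs, 0.041 in 3W-PSCs against mono-PSCs and 0.11 between 3W-PSCs and 2W-PSCs.

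A further list of 17 YAP/TAZ target genes, from a published signature without the genes described above, had 15 genes with enough counts. *Fjx1* and *Nt5e* had at most 8 and 17 counts in a library. In 3W-PSCs against mono-PSCs 9 of the 15 were called by edgeR, 6 higher and 3 lower, which is 60.0% against 26.4% of all genes, and 13.4% of all genes were called higher and 13% lower. *Ptpn14*, a phosphatase that binds YAP, rose from 64.7 ± 17.2 to 123 ± 27.1 CPM (SD, n = 4 each; log2 fold change 0.92, adjusted p = 0.00333, edgeR). The kinase genes *Nuak2* and *Axl* rose by 0.85 and 0.60 and *Myof*, which encodes a membrane repair protein, rose by 0.49 on the log2 scale (adjusted p = 0.0208, 0.0121 and 0.0335, edgeR). *Igfbp3* and *Foxf2* had the largest log2 fold changes, 2.28 and 2.00 (adjusted p = 0.0200 and 0.0211, edgeR), but from 0 to 16 and 1 to 21 counts in a mono-PSC library to 28 to 70 and 23 to 61 counts in a 3W-PSC library. No library overlapped between 3W-PSCs and mono-PSCs for *Ptpn14*, *Nuak2*, *Axl*, *Myof* and *Igfbp3*, while libraries did for *Foxf2*. Over the list, called or not, 9 of the 15 genes were without overlap in either direction, against 26% of all genes tested.

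The 3 targets that fell in 3W-PSCs against mono-PSCs did so with no overlap of libraries. *Ccdc80*, which encodes a matrix protein, had 202 ± 19.2 CPM in mono-PSCs, 316 ± 41.4 in 2W-PSCs and 126 ± 12.5 in 3W-PSCs (SD, n = 4 each; log2 fold change -0.68, adjusted p = 0.00191, edgeR). *Tgfb2*, a gene for a TGF-β ligand, had 24.2 ± 3.37, 35.9 ± 8.87 and 15.6 ± 2.26 CPM (log2 fold change -0.64, adjusted p = 0.0275) and *Rbms3*, for an RNA-binding protein, fell by 0.75 on the log2 scale (adjusted p = 0.00479, edgeR). *Ccdc80* and *Tgfb2* had their highest mean in 2W-PSCs and their lowest in 3W-PSCs. They were the 2 of 15 genes called between 3W-PSCs and 2W-PSCs (13.3% against 10.7% of all genes), both lower, with log2 fold changes of -1.33 and -1.20 (adjusted p = 0.000596 and 0.00793, edgeR). Without 2W-PSC replicate 2, 5 of the 15 were called there, 3 higher and 2 lower, and 18% of all genes were called. In 2W-PSCs against mono-PSCs 0 of the 15 were called by edgeR, with a lowest adjusted p of 0.155, and 0.991% of all genes were. DESeq2 called *Ccdc80* (adjusted p = 0.0334) and 1.94% of all genes. Without 2W-PSC replicate 2 edgeR called *Ccdc80* too, and 2.03% of all genes. The 9 calls of 3W-PSCs against mono-PSCs became 4 without 3W-PSC replicate 2 and 5 without mono-PSC replicate 4, fits that called 19% and 21.8% of all genes. *Ptpn14*, *Axl*, *Rbms3* and *Ccdc80* were called there in 16 of 16 alternative settings, *Nuak2* in 13, *Tgfb2* in 12 and *Myof* in 10, and *Igfbp3* in 11 and *Foxf2* in 10 of the 15 that tested them. *Ptpn14*, *Tgfb2* and *Foxf2* share 177, 124 and 98 exonic bases with genes on the opposite strand.

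**Figure D4:**
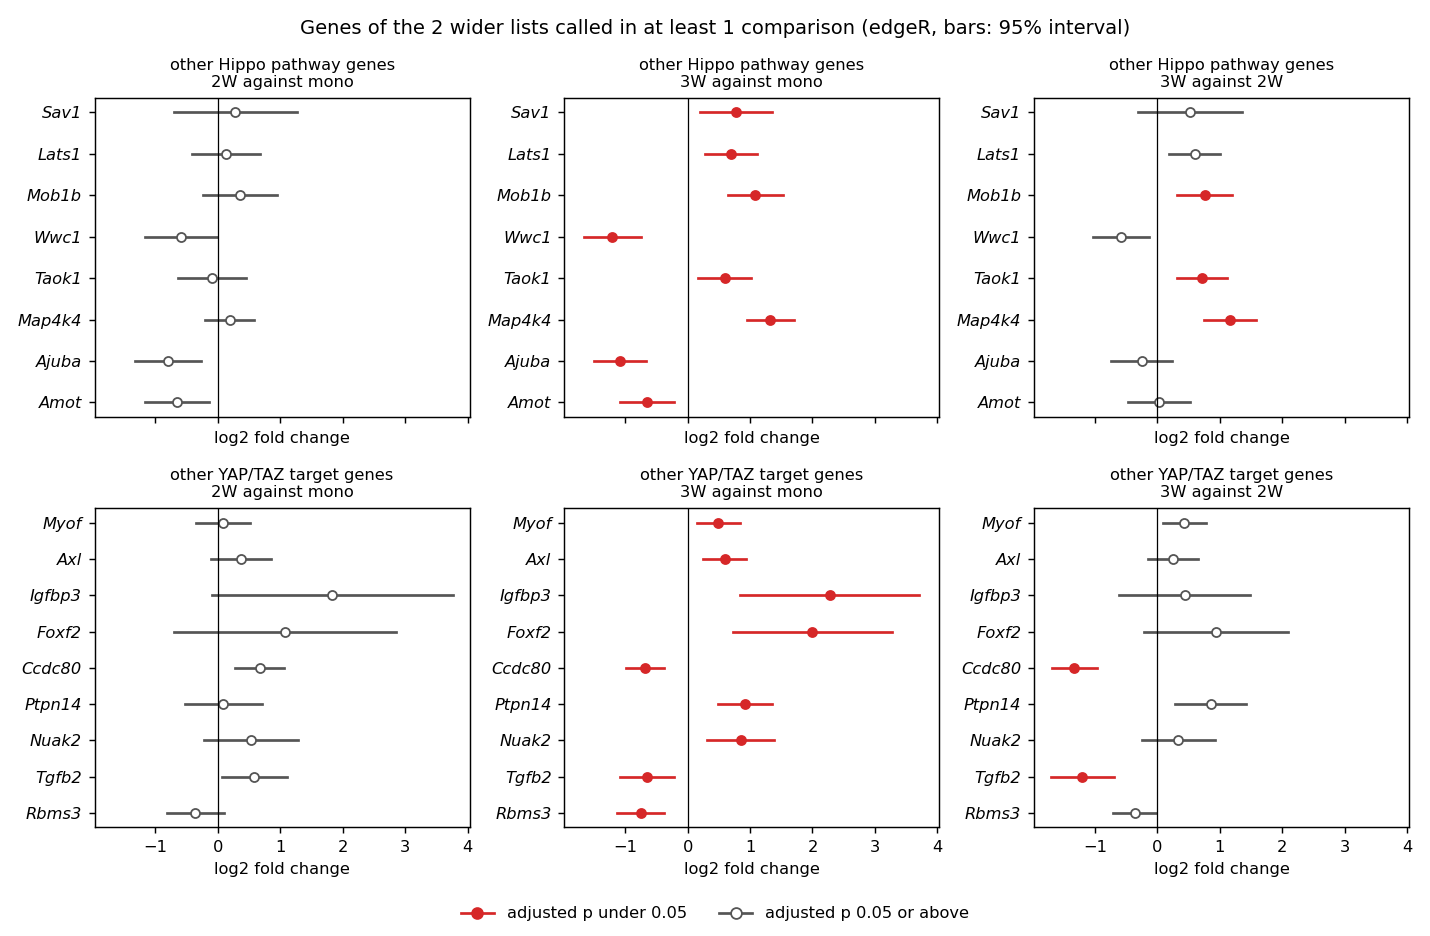
Log2 fold change from edgeR of the 8 other Hippo pathway genes (top row) and the 9 other YAP/TAZ target genes (bottom row) called in at least 1 comparison, with bars for the 95% interval and filled points for an adjusted p under 0.05. The middle column, 3W-PSCs against mono-PSCs, holds 8 and 9 filled points on both sides of 0, the left column, 2W-PSCs against mono-PSCs, holds 0, and the right column holds 3 above 0 and 2 below.

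The TEAD letters were also read over all tested genes with a RefSeq window. Of 1190 such genes with GGAATG or CATTCC, 13.2% were called higher and 13.2% lower in 3W-PSCs against mono-PSCs, where 13.5% and 13.2% of 7260 genes without them were. Between 3W-PSCs and 2W-PSCs 5.41% of 1184 genes with the letters were called higher and 5.32% lower, against 5.82% and 4.70% of 7236 genes without. In 2W-PSCs against mono-PSCs 13 of 1149 genes with the letters were called higher and 0 lower (1.13% higher), and 43 of 7068 genes without them were called higher and 11 lower (0.608% and 0.156%). The letters were present in 8 of 22 other Hippo pathway genes with a window, among them *Sav1* and *Ajuba*, and in 3 of 11 other targets, *Axl*, *Ptpn14* and *Crim1*. *Mob1b* and *Wwc1*, called in opposite directions, had windows without these letters, and *Map4k4* had no entry.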

How the data were processed

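Per the labels and the study's methods, the authors isolated PSCs by FACS, made QuantSeq 3′ libraries from total RNA, checked the reads with FastQC, aligned them to GRCm38 with STAR and assigned them to Ensembl genes with featureCounts. The deposited values are raw counts per gene, whole numbers with unequal totals, although the methods speak of normalised counts. No column was left unmapped. The strand setting and molecular identifiers are not given in the sources used here, so overlapping genes may share reads and counts include PCR copies. A 3′ library counts about 1 fragment per transcript, so CPM needs no length correction.

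Counts were scaled by TMM, filtered with filterByExpr and compared between 2 cultures at a time (8 libraries) with glmQLFit and glmQLFTest in edgeR 4.0.16 under R 4.3.3, with Benjamini-Hochberg adjustment across every gene in the fit. Fold changes carry edgeR's prior count of 0.125, and intervals are 95%. Levels are CPM with TMM over all 12 libraries. Alternatives were DESeq2's size factors, no filter, a minimum of 10 counts per library, 1 fit of all 12 libraries, a replicate block, DESeq2 1.42.0 with its Wald test, a fit without *Gm26924* and the mitochondrial rRNA genes, a prior count of 2, and each library left out in turn. The prior count of 2 leaves p-values unchanged, so it repeats the main call in every count over settings for a single gene. The scripts were tested on simulated data.

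The genes named are the 8 listed, those of 27 other Hippo pathway genes and 17 other YAP/TAZ targets that were called in at least 1 comparison or had too few counts, and the 3 genes most like each called one of the 8, of which 1 is not reported here. *Gm15270* and other overlapping genes, marker genes and genes with the TEAD letters are named beside a result. The 8 genes, the lists and the marker lists were chosen with earlier results of these data known. Positions and overlaps come from GENCODE M21 on GRCm38, and promoter windows from RefSeq on GRCm38.p6. GENCODE M21 is not the Ensembl annotation against which the study counted reads, so an overlap given here may be absent from that annotation. With 4 libraries a culture, a gene that was not called may still differ.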

Additional observations from a re-analysis of the deposited data

Results flagged for a closer look

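A library far from the 3 others of its culture, with a gap to the nearest of them that was a larger share of the whole range than Dixon's 95% critical value, was found in 4 of 75 combinations of gene and culture, and chance gives about 1 in 20. *Yap1* had 8.61 CPM in replicate 2 of 2W-PSCs, where the others had 70.2 to 78.7 CPM (gap over range 0.879), and this library also stood apart across all genes. *Ctgf* had 149 CPM in replicate 1 of mono-PSCs, where the others had 12.1 to 32.1 CPM (0.854). *Cyr61* had 101 CPM in replicate 3 of 2W-PSCs, where the others had 34.2 to 37.3 CPM (0.954). *Mob1b* had 28.1 CPM in replicate 4 of 3W-PSCs, where the others had 33.1 to 34.1 CPM (0.835).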

How the results depend on the processing

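Of the counts of called genes, 106 values under the alternatives stayed within 1.5 times the reported count and 29 did not. Of the 8 genes, 2 were called in 3W-PSCs against mono-PSCs (1 as reported) with DESeq2's size factors, with at least 10 counts in every library, with the replicate block, in DESeq2 and without *Gm26924* and the mitochondrial rRNA genes, 3 were called with no filter, and 1 to 4 with a library left out. Of all genes, 26.4% were called in this comparison as reported, 23.8% in DESeq2 and 20% with no filter. The share was 26.5% to 26.8% in the other settings just named, and 19% to 36.3% with a library left out. Between 3W-PSCs and 2W-PSCs 1 was called (0 as reported) with no filter, with the replicate block and in DESeq2, and 0 to 1 with a library left out, while 2W-PSCs against mono-PSCs gave 0 in every setting. Between 3W-PSCs and 2W-PSCs these settings called 6.72%, 6.53% and 13.5% of all genes in turn, and 4.25% to 18% with a library left out (10.7% as reported). With all 12 libraries in one fit the other Hippo pathway genes called in 3W-PSCs against mono-PSCs numbered 5 (8 as reported) and the other targets 5 (9 as reported), and 1 target was called in 2W-PSCs against mono-PSCs, as in DESeq2 (0 as reported). That fit called 17.5% of all genes in 3W-PSCs against mono-PSCs (26.4% as reported) and 2.22% in 2W-PSCs against mono-PSCs (0.991% as reported). In the latter comparison DESeq2 called 1.94% of all genes. With a library left out these lists gave 5 to 10 and 4 to 9 calls in 3W-PSCs against mono-PSCs, 0 to 1 each in 2W-PSCs against mono-PSCs, and 1 to 4 and 2 to 5 between 3W-PSCs and 2W-PSCs. In 2W-PSCs against mono-PSCs those fits called 0.539% to 2.03% of all genes. The causes were not tested.

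The replicate block gave 1 Hippo pathway gene in place of 3 between 3W-PSCs and 2W-PSCs and called *Cyr61* there (adjusted p = 0.0294, edgeR) and *Yap1* in 3W-PSCs against mono-PSCs (0.0471). Over all genes it called 135 in place of 111 in 2W-PSCs against mono-PSCs, 3092 in place of 3054 in 3W-PSCs against mono-PSCs and 752 in place of 1230 between 3W-PSCs and 2W-PSCs. Deviations of same-numbered libraries correlated by 0.099 to 0.338 between 2W-PSCs and mono-PSCs, 0.00263 to 0.107 between 3W-PSCs and mono-PSCs and -0.0476 to 0.155 between 3W-PSCs and 2W-PSCs, and 6, 4 and 3 of the 8 libraries in turn were closest to their own number. The sample names run through the cultures in turn within each replicate number, but the labels do not say what a shared number stands for. The numbers were not taken to pair the libraries, since not every correlation was above 0.1. Between 2W-PSCs and mono-PSCs the lowest, 0.099, fell just short of that, and whether the numbers pair libraries was not settled.

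For single genes 1079 values kept direction and call, 31 gained and 54 lost a call, and 30 changed sign, all of them in comparisons where the gene was not called. *Wwtr1* between 3W-PSCs and 2W-PSCs was at a log2 fold change of -0.014 with DESeq2's size factors, -0.0091 in DESeq2, -0.012 without *Gm26924* and the mitochondrial rRNA genes, and -0.030 to 0.067 with a library left out. With a library left out, the log2 fold changes of the other genes that changed sign between 3W-PSCs and 2W-PSCs ran from -0.087 to 0.29 for *Amotl2*, -0.056 to 0.25 for *Ankrd1* and -0.053 to 0.15 for *Amot*, and that of *Wwtr1* in 3W-PSCs against mono-PSCs from -0.038 to 0.19. In 2W-PSCs against mono-PSCs they ran from -0.36 to 0.19 for *Yap1*, -0.032 to 0.19 for *Wwtr1*, -0.21 to 0.15 for *Tead1*, -0.38 to 0.031 for *Lats2*, -0.0096 to 0.28 for *Ankrd1*, -0.97 to 0.21 for *Cyr61*, -0.15 to 0.68 for *Sav1*, -0.0097 to 0.25 for *Lats1*, -0.25 to 0.13 for *Taok1*, -0.034 to 0.15 for *Myof* and -0.17 to 0.26 for *Ptpn14*.

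Depth limits *Igfbp3* and *Foxf2*, with 70 counts or fewer in every library, and *Dchs1*, *Fjx1* and *Nt5e*, which were not tested.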
